A study of Mus musculus with 6 samples.

Results

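The genes described here are 10 components of the ATR-CHK1 and ATM-CHK2 checkpoint: the apical kinases Atr and Atm, the clamp subunits Rad1 and Hus1, the adaptor Clspn, the fork protection pair Timeless and Tipin, the effector kinases Chek1 and Chek2, and the CDK-restraining kinase Wee1. They were chosen by name, with earlier results of these data known. Every probe set of the array whose single annotated gene symbol was 1 of these 10 was taken. That gave 21 probe sets for 10 genes, out of 34945 such probe sets for 18193 genes. PD0332991 (palbociclib), a small-molecule inhibitor of CDK4 and CDK6, was given at 1 µM for 24 h to 3 samples of V720 cells, and vehicle was given to the other 3. V720 is a mouse breast cancer line, which the labels place in the mammary epithelium, and the labels name no further genotype and no other agent. Each sample was read on 1 Affymetrix mouse array, which gives a linear fluorescence intensity per probe set. The submitters call the samples biological triplicates but do not say how the cultures were separated, so the p-values rest on a spread between arrays that may be technical.

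The checkpoint is a kinase relay that watches DNA during S phase and before mitosis. ATR is activated on single-stranded DNA at stalled replication forks and ATM at double-strand breaks. They phosphorylate CHK1 and CHK2, which restrain the CDC25 phosphatases and so hold back the cyclin-dependent kinases. Several of these genes are transcribed mainly in cells that are replicating their DNA, under E2F factors that CDK4 and CDK6 release by phosphorylating the retinoblastoma protein.

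The promoter windows of 3 members are shown: those of Clspn and Chek2, which were at least 2-fold lower and hold matches to an E2F-type motif, and that of Atr, which showed the smallest difference of the 10 genes. Each window runs from 250 bases before to 50 bases after the gene start in RefSeq (build GRCm38.p6), 5′ to 3′ on the gene's strand. Capitals mark matches to either of 2 searched motif classes on either strand. The first class is the E2F type (TTTCCCGC, TTTCGCGC, TTTGCCGC and TTTGGCGC), and the second is the cell-cycle homology element (TTTGAA or TTCGAA). Windows were found for 8 of the 10 genes, and Wee1 and Tipin are only named. The windows of Chek1 and Timeless, genes also at least 2-fold lower, held no full E2F-type match and are not shown. The sequences lie at chr4:126556730-126557029 on the plus strand for Clspn, chr5:110839733-110840032 on the plus strand for Chek2 and chr9:95857347-95857646 on the plus strand for Atr.
Clspn: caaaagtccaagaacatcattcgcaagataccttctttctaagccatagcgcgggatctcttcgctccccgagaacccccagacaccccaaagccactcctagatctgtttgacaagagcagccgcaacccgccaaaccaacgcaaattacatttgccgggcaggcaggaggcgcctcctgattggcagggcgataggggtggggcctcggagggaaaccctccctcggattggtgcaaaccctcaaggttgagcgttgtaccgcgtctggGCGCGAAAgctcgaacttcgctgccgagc
Chek2: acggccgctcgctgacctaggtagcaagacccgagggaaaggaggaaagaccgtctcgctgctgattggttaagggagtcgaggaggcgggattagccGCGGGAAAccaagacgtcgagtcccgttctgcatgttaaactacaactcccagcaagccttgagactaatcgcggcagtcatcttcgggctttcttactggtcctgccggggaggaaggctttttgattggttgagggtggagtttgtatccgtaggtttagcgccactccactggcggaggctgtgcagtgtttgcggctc
Atr: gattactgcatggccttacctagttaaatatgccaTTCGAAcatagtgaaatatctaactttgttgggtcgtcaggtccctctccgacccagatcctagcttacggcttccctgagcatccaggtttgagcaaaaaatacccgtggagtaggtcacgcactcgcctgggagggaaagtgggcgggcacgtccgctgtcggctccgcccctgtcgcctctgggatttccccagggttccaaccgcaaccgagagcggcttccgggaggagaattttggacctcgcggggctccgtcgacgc

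An E2F-type match stood in the windows of Clspn, from base 272, and Chek2, from base 99, both on the opposite strand. It was not among the letters of the windows of Atr, Atm, Chek1, Timeless, Rad1 or Hus1. The Chek1 window ends in GCGGGAA, which lacks only the last letter of GCGGGAAA, the form of TTTCCCGC on the opposite strand. Whether the next base completes this match was not read. The Atm window holds the same stretch GCGGGAA, there followed by G, so that it is no full match. Of 9 windows for the 8 genes (Rad1 has a pair of starts), 2 held this class, against 2.26% of all 32851 windows of that length. The cell-cycle homology element stood in 2 of the 9 windows, those of Atr and Hus1, against 19.2% of all windows. The Atr match is a palindrome and so reads the same on both strands. These matches describe the letters in the windows, and binding was not measured.

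After 24 h of PD0332991, 8 of the 10 genes were lower than with vehicle on their brightest probe set and none was higher. Clspn and Chek1 fell most, 2.87-fold and 2.59-fold, and Timeless, Tipin and Chek2 each fell about 2-fold. Wee1, Atm and Hus1 fell by smaller amounts, 1.46-fold, 1.40-fold and 1.27-fold. Atr and Rad1 were 1.11-fold and 1.17-fold lower and did not pass the test. All 10 genes passed when the fit and the adjustment were both repeated on 1 probe set a gene. The median log2 fold change of the 10 genes was -0.78, against 0.00 over all 18193 genes. Fold changes here are on the log2(intensity + 16) scale and were tested with limma over all 45037 probe sets that are not controls, with Benjamini-Hochberg adjustment and a threshold of 0.05. Of all genes read the same way, 9.05% were called lower and 7.80% higher.

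**Figure D1:**
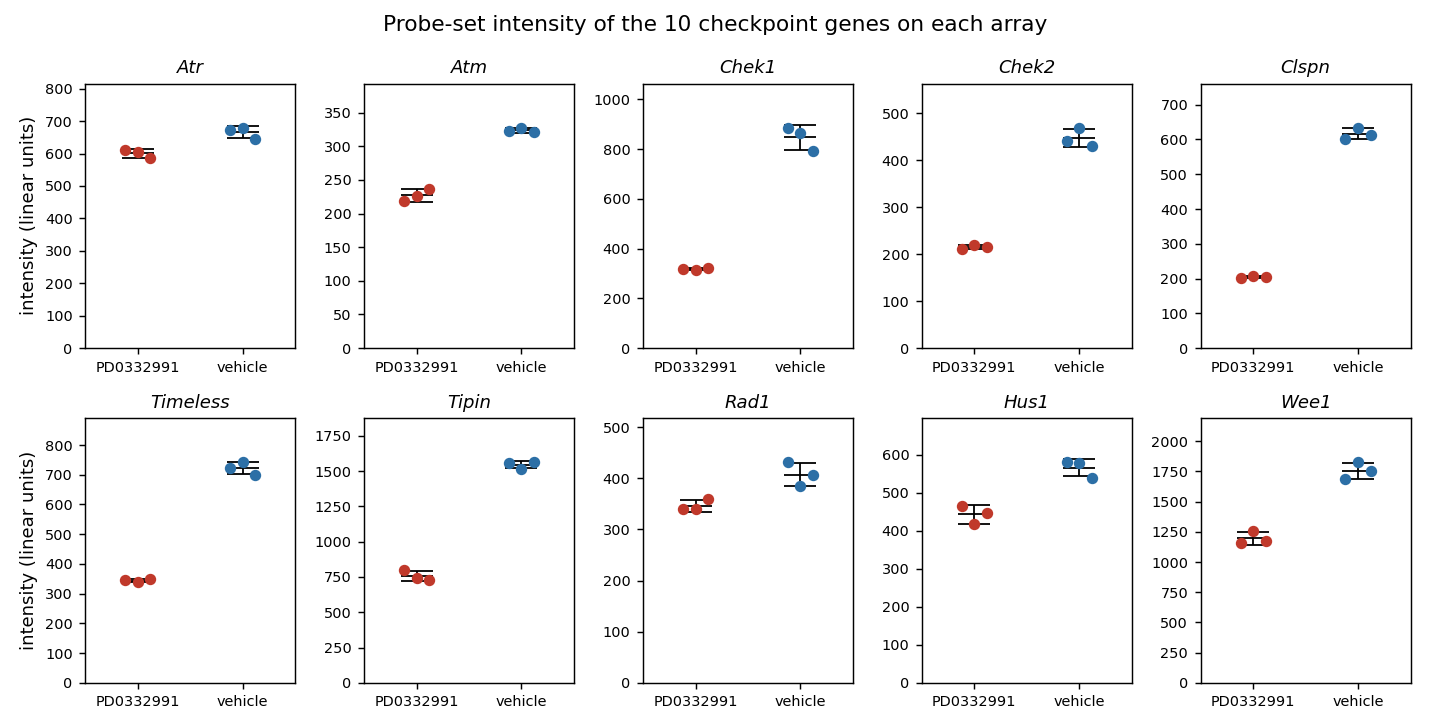
Intensity (linear units, axis from 0) of the brightest probe set of each of the 10 genes on the 3 PD0332991 and the 3 vehicle arrays, 1 point an array, with the mean and SD as bars. The PD0332991 points lie below the vehicle points in every panel, widely apart for Clspn, Chek1, Chek2, Timeless and Tipin and close together for Atr and Rad1.

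The arrays were at a like level, with medians of 69.6 to 71.1 on the PD0332991 and 71.3 to 72.7 on the vehicle arrays. The means of 9 spike-in probe sets were 10.0 to 10.1 on the PD0332991 and 9.74 to 10.0 on the vehicle arrays (log2), vehicle replicate 1 having the lowest. Of the luminal markers, Krt8, Krt18, Epcam and Cdh1 were bright on all arrays and Krt19 was among the dimmest probe sets of the table. All 3 basal, 3 endothelial and 2 adipocyte markers measured were below the array median. Of 6 leukocyte markers 2 were higher, Ptprc and Cd68. Ptprc was dim, with means of 18.2 with PD0332991 and 11.6 with vehicle, and Cd68 had 308 and 230. The summed intensity of the 6 was 562 to 589 on the PD0332991 and 457 to 496 on the vehicle arrays. Adgre1 (means of 126 with PD0332991 and 105 with vehicle) and Csf1r (120 and 116) were not called, with log2 fold changes of 0.23 and 0.05. Cd3e and Itgam stood near the lowest values of the table and were not called either (-0.18 and 0.11). Of 4 fibroblast markers 1, Pdgfra, was lower, with means of 117 with PD0332991 and 175 with vehicle. The other fibroblast markers, Col1a1, Col1a2 and Pdgfrb, were below the array median and not called (log2 fold changes 0.09, 0.09 and 0.02). The summed intensity of the 4 was 165 to 182 on the PD0332991 and 207 to 248 on the vehicle arrays, and Pdgfra was its brightest part. The part of these other markers in the results below was not tested. In a bulk sample, fewer cells in a given phase of the cycle and less RNA per cell cannot be told apart.

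At the head of the relay, the 2 apical kinases differed in how far they changed. Atm (chromosome 9) had intensities of 218, 226 and 236 on the PD0332991 arrays, against 323, 328 and 320.45 on the vehicle arrays. The groups lay well apart, and the log2 fold change was -0.48 (SE 0.05, limma adjusted p = 0.00225). A dimmer Atm probe set gave nearly the same value, -0.49 (SE 0.07, adjusted p = 0.00891). Atr (chromosome 9) had 609.61, 606 and 586 on the PD0332991 arrays, against 673, 679.65 and 645 on the vehicle arrays. All PD0332991 values of Atr lay below all vehicle values, as was so for 19.6% of all genes, but the gap was small. The log2 fold change was -0.15 (95% interval -0.25 to -0.04, adjusted p = 0.0857), and the other Atr probe sets gave -0.17 (adjusted p = 0.0541) and -0.11 (adjusted p = 0.280). With the limma fit and adjustment repeated on 1 probe set a gene in place of all probe sets, Atr passed at adjusted p = 0.0485. Over all alternatives its adjusted p lay between 0.0196 and 0.206.

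The clamp subunits changed little. RAD1 and HUS1 form with RAD9 a ring that is loaded next to a stalled fork and brings the ATR activator TOPBP1 to it. Hus1 (chromosome 11) had 467, 418 and 446 on the PD0332991 arrays, against 580.03, 579 and 540.09 on the vehicle arrays. It fell by 0.34 on the log2 scale (SE 0.06, adjusted p = 0.0168), and its dimmer probe set gave -0.44 (adjusted p = 0.0250). The call on the brighter set ended when PD0332991 replicate 2 (adjusted p = 0.0509), PD0332991 replicate 3 (0.0566), vehicle replicate 1 (0.0617) or vehicle replicate 2 (0.0598) was left out, with log2 fold changes of -0.35 to -0.30. Rad1 (chromosome 15), on its single probe set, had 339.95, 339 and 359 on the PD0332991 arrays, against 431, 386 and 406 on the vehicle arrays. Its groups did not overlap, and the log2 fold change of -0.23 (95% interval -0.36 to -0.09) stood just outside the threshold (adjusted p = 0.0512). Over 1 probe set a gene, Rad1 passed at adjusted p = 0.0324, with 0.00657 to 0.211 over all alternatives.

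The adaptor of CHK1 showed the largest fall of the 10 genes. Claspin, the product of Clspn, holds CHK1 near ATR so that it can be phosphorylated, and travels with the fork. Clspn (chromosome 4) had intensities of 201, 208 and 205 on the PD0332991 arrays, against 603, 634 and 612 on the vehicle arrays. The 3 PD0332991 arrays thus held 33.2% of the vehicle mean, with an SD of 3.67 around 205 (n = 3) against an SD of 16.01 around 616 (n = 3). The log2 fold change was -1.52 (SE 0.04, adjusted p = 8.97e-05), rank 77 from the lowest among 18193 genes. Its second, dimmer probe set had means of 53.7 ± 3.68 with PD0332991 and 96.2 ± 11.6 with vehicle (SD, n = 3 each), with a log2 change of -0.68 (SE 0.09, adjusted p = 0.00615). Both sets were called lower, but the 2 estimates of the same gene differed in size.

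The fork protection pair moved by nearly the same amount. TIMELESS and TIPIN bind each other, and together with Claspin they link the replicative helicase to the polymerases. Timeless (chromosome 10) had 345, 338 and 349 on the PD0332991 arrays, against 723, 741 and 700.48 on the vehicle arrays. It fell by 1.03 on the log2 scale (SE 0.04, adjusted p = 0.000117), and its dimmer set gave -0.96 (SE 0.08, adjusted p = 0.00117). Tipin (chromosome 9), on its single probe set, had 798, 741 and 729 on the PD0332991 arrays, against 1559.95, 1516 and 1561 on the vehicle arrays. Its log2 fold change was -1.02 (SE 0.05, adjusted p = 0.000194). The PD0332991 arrays held 47.7% of the vehicle mean for Timeless and 48.9% for Tipin.

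Both effector kinases fell, Chek1 further than Chek2 on the brightest probe sets. Chek1 (chromosome 9), which encodes the kinase that ATR activates, had 319, 313 and 320.5 on the PD0332991 arrays, against 886, 864 and 792 on the vehicle arrays. The log2 fold change was -1.37 (SE 0.05, adjusted p = 0.000105), rank 118 from the lowest of all genes. Chek1 had 5 probe sets, and how far they fell differed. A set with means of 194 ± 7.29 with PD0332991 and 543 ± 41.4 with vehicle (SD, n = 3 each) gave -1.41 (SE 0.07, adjusted p = 0.000165), close to the brightest one. A dimmer set with means of 43.8 ± 4.63 and 97.3 ± 3.74 (SD, n = 3 each, PD0332991 and vehicle) gave -0.93 (adjusted p = 0.000966). The last 2 sets had vehicle means of 29.97 ± 7.83 and 4.02 ± 1.06 (SD, n = 3 each), below the array median of about 71, and overlapped between the groups (log2 fold changes -0.07 and -0.02, adjusted p = 0.842 and 0.906). The annotation gives the same source record for these dim sets as for the brightest set, whose type can match several transcripts.

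Chek2 (chromosome 5), which encodes the kinase downstream of ATM, has a single probe set. It had 211, 219 and 215 on the PD0332991 arrays, against 442, 469.67 and 432 on the vehicle arrays. The groups were far apart relative to their spread, and the log2 fold change was -1.004 (95% interval -1.12 to -0.89, adjusted p = 0.000172). Chek2 fell further than Atm, the other member of the ATM branch, which had -0.48.

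Wee1 fell too, and its 95% interval (-0.68 to -0.42) did not meet that of Chek1 (-1.51 to -1.24). WEE1 adds the inhibitory phosphate to CDK1 and CDK2 that the CDC25 phosphatases remove. Wee1 (chromosome 7) had 1157, 1255 and 1176 on the PD0332991 arrays, against 1691, 1825 and 1752 on the vehicle arrays. The log2 fold change was -0.55 (SE 0.05, adjusted p = 0.00263), and the dimmer set gave -0.43 (SE 0.05, adjusted p = 0.00425).

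**Figure D2:**
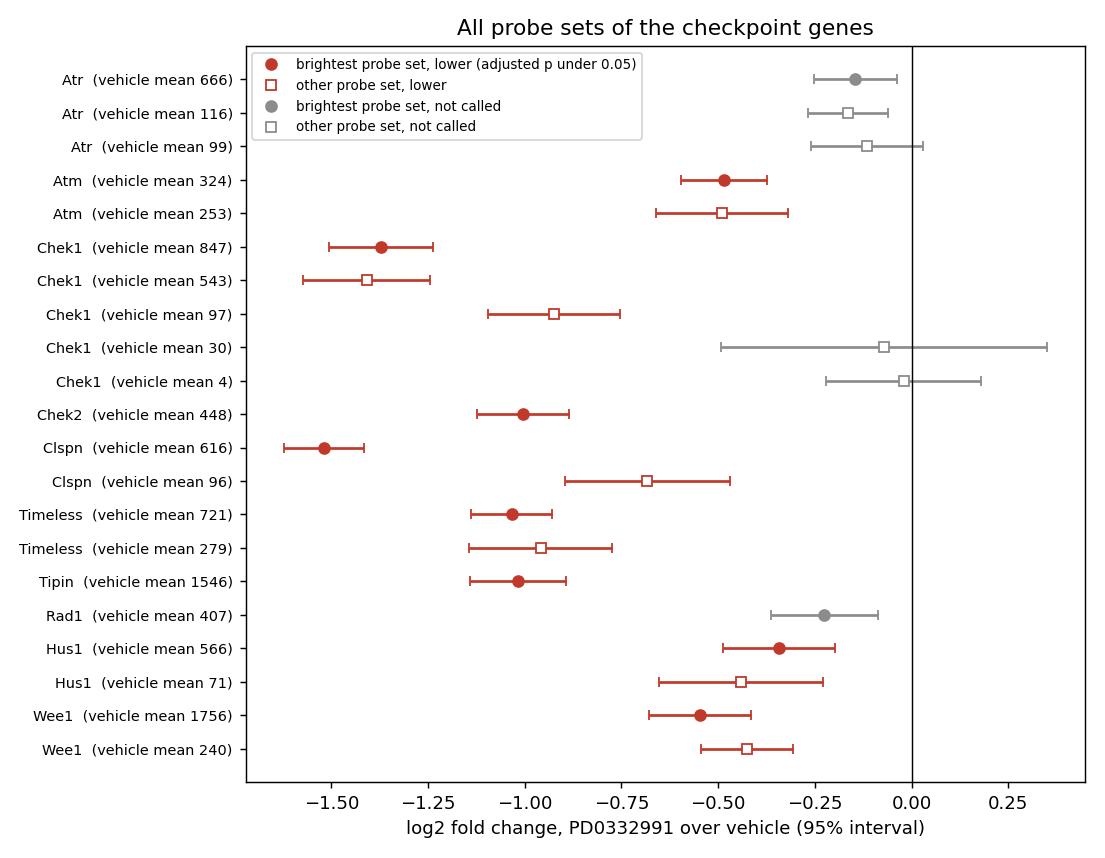
Log2 fold change (PD0332991 over vehicle, x axis) with its 95% interval for each of the 21 probe sets, in rows by gene with the mean vehicle intensity beside the symbol. Filled circles are the brightest set of a gene, open squares the others, and red those called lower. The 3 Atr sets, the Rad1 set and the 2 dimmest Chek1 sets are grey.

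Counted over all probe sets of the 10 genes, 15 of 21 were called lower and none higher, where 8.19% of all probe sets were called lower and 6.00% higher. The 6 that did not pass were the 3 of Atr, the 1 of Rad1 and the 2 dimmest of Chek1. In 18 of the 21, all PD0332991 arrays lay below all vehicle arrays, against 18.5% of all probe sets. Of the 10 genes, 5 were called and at least 2-fold lower, against 1.15% of all genes. Timeless, Tipin and Chek2 stood near that cut. Their log2 fold changes were -0.99, -0.99 and -0.97 after quantile normalization, and -1.16, -1.14 and -1.13 after spike-in centring. In the order of the log2 fold changes, Clspn and Chek1 stood lowest, with 95% intervals that overlapped (-1.62 to -1.41 and -1.51 to -1.24). Timeless, Tipin and Chek2 lay within 0.03 of each other, each with an SE of 0.04 to 0.05. From Wee1 through Atm, Hus1 and Rad1 to Atr, each interval overlapped the next.

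Whether 2 genes changed unequally was asked for 5 pairs by taking, on each array, the log2 difference between their brightest probe sets. An exact permutation test (two-sided) of 3 against 3 cannot go below p = 0.1, so no pair could pass a threshold of 0.05. Atr minus Atm was 1.42, 1.36 and 1.25 on the PD0332991 arrays, against 1.02, 1.02 and 0.97 on the vehicle arrays. The difference was 0.34 higher with PD0332991, without overlap (exact permutation p = 0.1, adjusted over the 5 pairs 0.167). Chek1 minus Chek2 was 0.56, 0.49 and 0.54 on the PD0332991 arrays, against 0.98, 0.86 and 0.85 on the vehicle arrays. That is a change of -0.37 without overlap (exact permutation p = 0.1, adjusted 0.167), but it became 0.25 when the mean of all probe sets stood for a gene, which takes in the dim Chek1 sets. Clspn minus Chek1 changed by -0.15, also without overlap (exact permutation p = 0.1, adjusted 0.167).

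The other pairs overlapped. Timeless minus Tipin was -1.17, -1.09 and -1.03 on the PD0332991 arrays, against -1.09, -1.02 and -1.14 on the vehicle arrays, a change of -0.02 (exact permutation p = 0.7, adjusted 0.7). Its sign turned in 4 of the alternative settings. Rad1 minus Hus1 changed by 0.12 (exact permutation p = 0.3, adjusted 0.375).

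**Figure D3:**
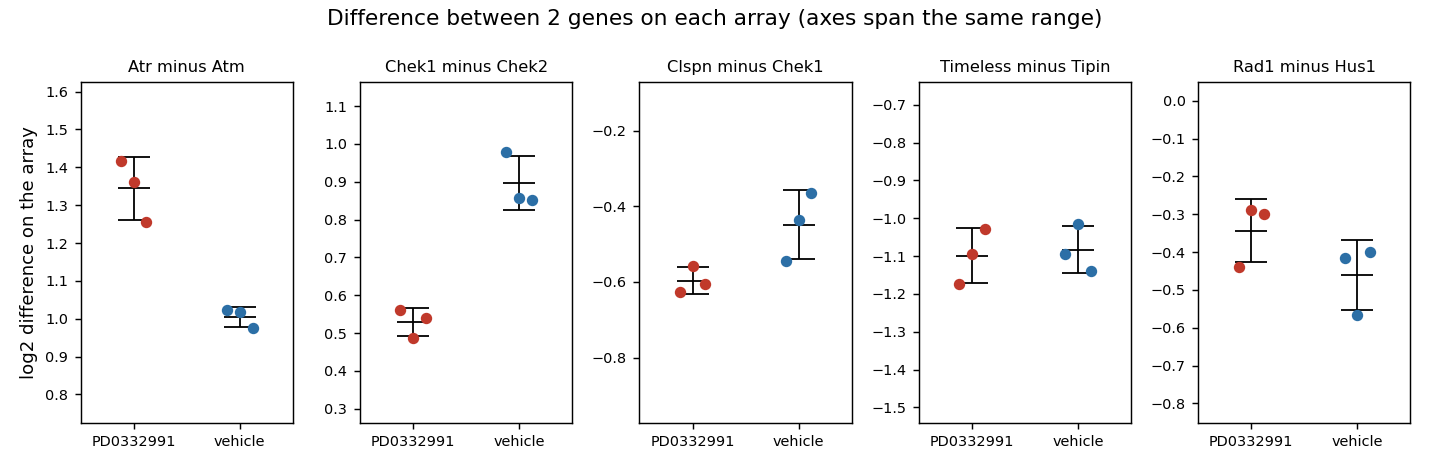
Log2 difference between the brightest probe sets of 2 genes on each array (y axis, each panel spanning the same range), for PD0332991 and vehicle, with the mean and SD as bars. The groups are apart for Atr minus Atm, Chek1 minus Chek2 and Clspn minus Chek1, and overlap for Timeless minus Tipin and Rad1 minus Hus1.

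The genes with which these 10 work were read from 5 lists holding 51 measured genes. The lists were written with earlier results of these data known. Of these, 35 were called lower and none higher, against 9.05% lower and 7.80% higher over all genes, and the median log2 fold change was -0.55. Among the genes of ATR activation 11 of 14 were lower, with a median of -0.64. These include Rfc4 and Rfc5, subunits of the loader that places the clamp. Rfc4 averaged 546 ± 12.7 with PD0332991 and 1194 ± 26.0 with vehicle (SD, n = 3 each), and its log2 change was -1.10 (SE 0.04, adjusted p = 9.52e-05). Rfc5 averaged 774 ± 25.4 with PD0332991 and 1637 ± 46.7 with vehicle (SD, n = 3 each), a log2 fold change of -1.07. The 3 that did not pass, named after their values were seen, were the ATR partner Atrip (-0.16), the RAD9 paralogue Rad9b (-0.09, dim) and Rad17, which leads the clamp loader at damaged DNA (-0.03).

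Among the genes of ATM activation and break signalling 8 of 11 were lower, with a median of -0.45. The largest changes were those of H2ax, the histone variant that ATM phosphorylates at breaks (575 ± 49.3 with PD0332991 and 1613 ± 16.5 with vehicle, SD, n = 3 each, log2 fold change -1.47, adjusted p = 0.000165), and Brca1, which acts in break repair. Brca1 averaged 284 ± 24.4 with PD0332991 and 803 ± 26.2 with vehicle (SD, n = 3 each, log2 fold change -1.45), and of its 3 dimmer sets 2 were also called lower. Trp53bp1, Rnf8 and Kat5, named after their values were seen, did not pass (-0.06, -0.23 and -0.13). Of the genes called lower, Mre11a, Rad50 and Rnf168 each had a dimmer set that was not called (0.02, -0.13 and -0.19). Bard1 was dim, with means of 13.6 with PD0332991 and 32.1 with vehicle. These genes too were named after their values were seen. The count for this list was 5 without PD0332991 replicate 2, without PD0332991 replicate 3 or without vehicle replicate 3.

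Of 8 fork partners 6 were lower, with a median of -0.83. Wdhd1, a replisome adaptor, averaged 219.69 ± 6.01 with PD0332991 and 537 ± 22.3 with vehicle (SD, n = 3 each, log2 fold change -1.23, adjusted p = 0.000108). Mcm10, which helps activate the helicase, had a log2 fold change of -0.999 (adjusted p = 0.000233) on its brightest set, and -0.33 and -0.18 on 2 dim sets that did not pass. Among the fork remodellers, named after their values were seen, Zranb3 was lower (-1.01, adjusted p = 0.00061, and -0.31 on a dimmer set that did not pass), while Smarcal1 (-0.16) and Hltf (-0.06) did not pass.

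The mitotic entry switch that the checkpoint acts on also fell, in 7 of 8 genes, with a median of -0.81. Cdc25c, a phosphatase that removes the WEE1 mark, averaged 172 ± 13.8 with PD0332991 and 669.92 ± 26.2 with vehicle (SD, n = 3 each), and its log2 change was -1.87 (SE 0.07, adjusted p = 9.14e-05). Cdc25b averaged 189 ± 11.03 with PD0332991 and 535 ± 7.77 with vehicle (SD, n = 3 each, log2 fold change -1.43). Cdc25a, the other CDC25 phosphatase gene of the list, was also lower, with a log2 fold change of -0.41. Its dimmer sets gave -0.39 and -0.24, and only 1 of them was called lower. Wee2 was dim and had 0.06, and it and Cdc25a were named after their values were seen. In the list of checkpoint control and recovery 3 of 10 were lower. They were Plk1, the mitotic kinase that ends the checkpoint (314 ± 31.0 with PD0332991 and 1172 ± 32.7 with vehicle, SD, n = 3 each, log2 fold change -1.85), its activator Bora (-1.11), and the phosphatase gene Ppm1d (-0.27), the last named after its value was seen. The median of this list was -0.09. Cul4a, a ubiquitin ligase scaffold (-0.03), and Tlk2, a kinase (-0.08), also named after their values were seen, did not pass on their brightest sets. The other Tlk2 sets gave 0.11, -0.07, -0.33 and -0.53, and only 2 of them shared that outcome.

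**Figure D4:**
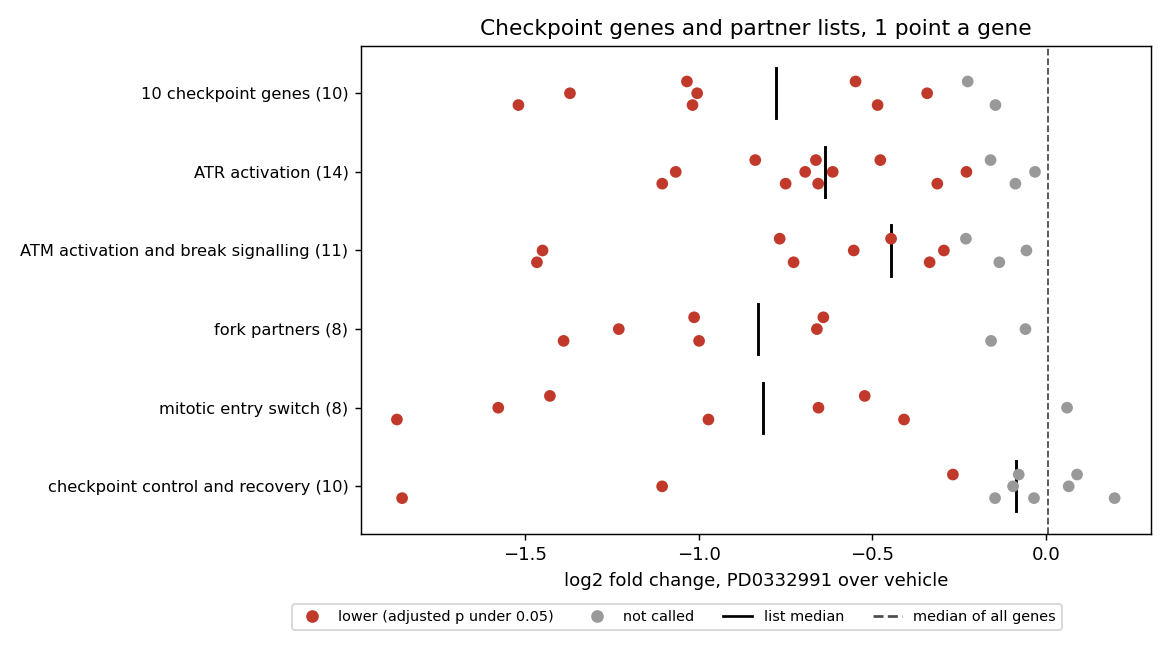
Log2 fold change (PD0332991 over vehicle, x axis) of the 10 checkpoint genes and of the genes of the 5 partner lists, 1 point a gene on its brightest probe set, with list medians as bars and the median of all genes dashed. Red points were called lower. The points of checkpoint control and recovery cluster near 0 apart from Plk1, Bora and Ppm1d.

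The genes whose pattern over the 6 arrays was nearest to that of a member were found by the root mean square difference of centred log2 values, among 9095 genes above the median level. Predicted genes and unnamed clones among these were passed over. For Chek1 these were Pole, the catalytic subunit of DNA polymerase epsilon (0.05), Ercc6l, a mitotic helicase (0.05), and Hmgb2, a chromatin protein (0.06). For Clspn they were Tcf19 (0.02), the kinetochore gene Spc25 (0.03) and Lig1, the ligase that joins Okazaki fragments (0.03). For Wee1 they were Chml (0.02), Dis3, a nuclease of the exosome (0.02), and Psip1, a chromatin-binding protein (0.03). The arrays fall into 2 groups, so that nearness mostly reflects a like difference between them: the log2 fold changes of the neighbours ranged from -1.51 to -1.34 for Chek1 and Clspn, and from -0.59 to -0.52 for Wee1.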

How the data were processed

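Intensities are those of the authors' deposited table, 1 linear value per probe set and array; per the labels' protocols, total RNA was labelled with biotin by the Affymetrix procedure, and the summarisation method and scaling are not given in the sources used here. All 6 columns were used, without further normalization. Of 45101 probe sets, 64 controls were left out and 45037 tested. The platform annotation gave 1 symbol to 34945, several to 932 and none to 9160.

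Values were taken as log2(intensity + 16) and compared with lmFit and eBayes of limma 3.58.1 (R 4.3.3), and two-sided p-values were adjusted by Benjamini-Hochberg across the 45037. A gene was read from its brightest probe set. There was no filter on dim sets. Pairs of genes were tested by exact permutation (scipy 1.17.1). The procedure was tested on simulated data.

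The members, lists and tests were chosen with earlier results of these data known. Named partners were the 1 higher and 2 lower called genes with the smallest p per list; 4 of 55 entries were not analysed here. Same-numbered arrays did not deviate together (correlations -0.05 to 0.04), so the numbers were not used as pairs. Alternatives were other scalings, pseudocounts of 1 and 64, a filter on dim sets, other gene summaries, other eBayes settings, array weights, a replicate block, a threshold of 0.01, and each array left out. The number of arrays limits the precision.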

Additional observations from a re-analysis of the deposited data

How the results depend on the processing

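Under every alternative run, none of the 10 genes and none of the 51 partners was called higher, and 7 to 10 genes and 28 to 38 partners were called lower. Clspn, Chek1, Chek2, Timeless, Tipin, Wee1 and Atm were called lower in all 19 alternatives. Hus1 was called in 12, Rad1 in 6 and Atr in 5. With the replicate block 7 genes, 13 probe sets and 28 partners were lower, the call of Hus1 being lost (adjusted p = 0.0677). The median log2 fold change of the 10 genes was -0.62 when probe sets of a gene were averaged, -0.75 after median centring and after quantile normalization, -0.70 with a pseudocount of 64, -0.90 after spike-in centring and -0.84 after the same without vehicle replicate 1. Spike-in centring moved the median of all probe sets by -0.13, so that relative to them the falls were as before. Leaving out 1 array at a time gave -0.79 to -0.75. Chek1 minus Chek2 turned to 0.25 with the mean of probe sets. Timeless minus Tipin turned to 0.022 with the mean of probe sets and 0.030 with a pseudocount of 64, and ranged from -0.051 to 0.021 with 1 array left out. The 2 dimmest Chek1 sets also changed sign: one ranged from -0.19 to 0.064 with 1 array left out, the other from -0.081 to 0.050, and it had 0.0077 after median centring. The list of ATM activation had 5 genes lower with the replicate block and at a threshold of 0.01, and checkpoint control 5 with trend and robust settings. The causes were not tested.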
